A study of Sus scrofa with 46 samples.

Results

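The genes described here are the 32 genes of the Krebs cycle, the pyruvate dehydrogenase complex and the enzymes and carriers that feed them, chosen by gene symbol among the 18440 genes of a liver count table from 46 newborn piglets. All 32 were found and all 32 passed the filter on low counts, which 13780 genes passed in all. The piglets were born to Danish Landrace × Danish Yorkshire sows mated with Duroc boars, had either intrauterine growth restriction (IUGR, poor growth in the womb, judged from the shape of the head) or normal size, and had their livers taken at 72 h of age. By their labels, 11 piglets were normal untreated and 12 normal treated, 13 were IUGR treated and 10 IUGR untreated, where treated piglets were given the commercial oral energy product Piggy Boost. Litter, sex and week of sampling were not given in the labels, and several piglets were selected per sow.

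The libraries held 15036591 to 19340218 counts and 15720 to 16196 detected genes, and no pair of libraries within a group agreed within sampling noise. Pigs 38, 39 and 46, 1 labelled IUGR untreated and the others IUGR treated, stood apart, with a median r over all genes of 0.772 to 0.85 to the remaining libraries, where each of the other 43 had 0.961 to 0.973. The column headings of the count table are in doubt. In a DESeq2 test of the untreated groups, 0 of 5 check genes (PDK4, CEL, CXCL12, SDF2L1 and ENHO) were called in the direction looked for with the headings as deposited, and 5 of 5 were called when the headings were sorted as text, so each group difference given here holds only if the headings stand over the right columns. Levels across all livers and correlations between genes do not use the group labels, except where group means were removed. Naming a liver by its pig number or group does depend on the headings. In bulk liver, fewer cells of a type and less RNA per cell cannot be told apart.

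Hepatocytes bring pyruvate into the mitochondrion through a carrier made of MPC1 and MPC2. There the pyruvate dehydrogenase complex turns it into acetyl-CoA for the Krebs cycle, while pyruvate carboxylase (PC) turns it into oxaloacetate, which refills the cycle and starts the synthesis of glucose. The cycle oxidizes acetyl-CoA and hands electrons to the respiratory chain, and newborn liver uses the same enzymes for glucose synthesis and for burning the fat of milk. Lipoic acid, made with the help of LIAS and LIPT1, is the cofactor that the pyruvate and 2-oxoglutarate dehydrogenase complexes share.

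These genes were about as steady from liver to liver as other genes above a floor on the mean level. Levels are given as CPM (counts scaled to the size of the library), which depend on transcript length, so they are compared between livers and not between genes. Over the 43 livers the coefficient of variation of the 32 genes had a median of 18.4%, against 22% for all genes tested. Among genes with a mean of at least 20 CPM this gap was not seen. The median there was 17.6% for 30 of these genes and 17.4% for 6250 genes. Levels above that floor were not matched.

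The steadiest was DLD, the dihydrolipoamide dehydrogenase that serves several complexes, with a lowest level of 91.3, a median of 116 and a highest of 164 CPM (coefficient of variation 12.5%). SDHA and PDHA1, the catalytic subunits of succinate dehydrogenase and of pyruvate dehydrogenase, and IDH3B each varied by 13.1%. Citrate synthase (CS), which opens the cycle, ran from 63.8 to 107 CPM, a range of 1.67-fold. IDH3B had the narrowest range, 46.1 to 71.7 CPM or 1.55-fold.

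Of the 32 genes, 6 spanned more than 3-fold over the same livers, a count that was not made for all genes. ME3, the mitochondrial malic enzyme that uses NADP, ran from 3.13 to 33 CPM, or 10.5-fold, with a median of 6.97 CPM. PC ran from 164 to 740 CPM, a 4.52-fold range around a median of 366 CPM. These are the genes for refilling the cycle and for taking malate back to pyruvate. The ADP-forming succinyl-CoA ligase subunit SUCLA2 ran from 42.3 to 173 CPM (4.08-fold) and the cytosolic malate dehydrogenase MDH1 from 38.3 to 129 CPM (3.38-fold). PDHX, the subunit that anchors DLD in the pyruvate dehydrogenase complex, spanned 3.09-fold and the oxoglutarate carrier SLC25A11 3.04-fold. The 2 succinyl-CoA ligase genes that set nucleotide specificity thus differed in spread, with 33.5% for SUCLA2 and 14% for the GDP-forming SUCLG2.

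The lowest and highest values of several genes came from the same livers. Pig 5 was the lowest of the 43 livers for 9 of the 32 genes: IDH3G, SUCLG1, SDHA, SDHB, SDHC, FH, PDHA1, MPC2 and SLC25A10, or 28.1% of them against 4.06% of all genes tested. Its scaling factor was also the highest of the 43 (1.2, with a lowest of 0.862), and the part of that factor was not tested. Pig 66 was the highest for 6: DLST, SDHA, SDHB, MDH2, PC and ME3, or 18.8% of them against 2.27% of all genes.

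Many pairs of these genes moved together across the 43 livers, both within a complex and outside it. Of 496 pairs among the 32 genes, 423 had a Pearson's r above 0, with a median r of 0.319 and a range of -0.447 to 0.805. The highest was IDH3B with SLC25A11, which were not chosen as partners. SDHB with MPC2 (0.796) and IDH3G with SUCLG1 (0.794), also not partners, stood close to it. No share over pairs of all genes was computed. Among 21 partner pairs chosen as subunits of a complex, enzymes of the same or a linked step, or carriers, 12 passed an adjusted p of 0.05 in a two-sided permutation test, all with r above 0, and 14 passed by Spearman's rho. The livers share litters and pipeline steps that the labels do not give, and genes are not independent replicates.

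**Figure D1:**
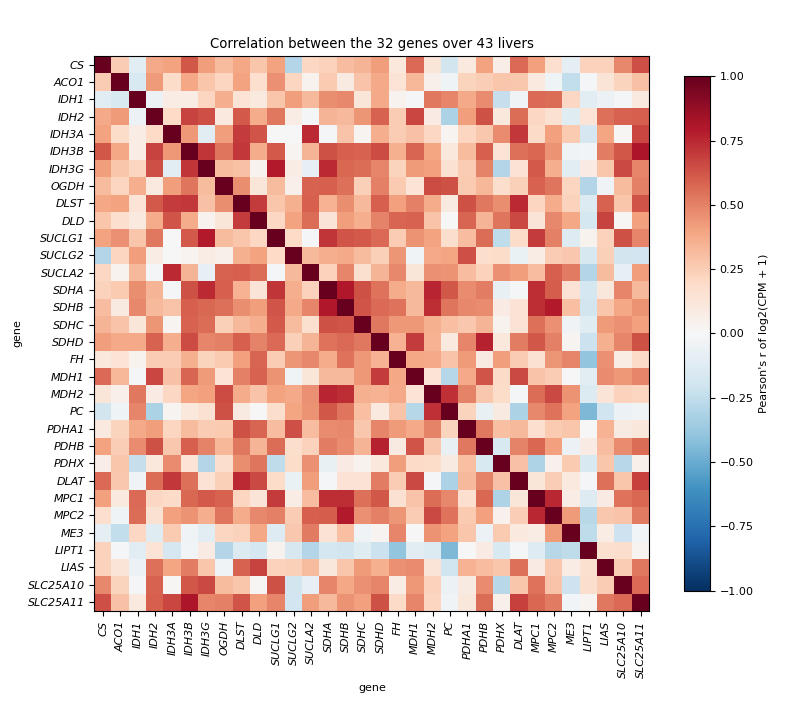
Pearson's r between the log2(CPM + 1) levels of the 32 genes over 43 livers, with genes on both axes and r as color from -1 (blue) to 1 (red). Most squares are red, since 423 of 496 pairs were above 0, and LIPT1 and PDHX hold many of the pale or blue ones.

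Succinate dehydrogenase, which is both a Krebs cycle enzyme and complex II of the respiratory chain, gave the strongest partner pair. SDHA, which carries the flavin, and SDHB, which carries the iron-sulfur clusters, had an r of 0.799 (rho 0.781, permutation adjusted p 4.2e-05), and 0.77 without the 2 livers farthest from the median. Each stood 12th when all other genes were ranked by their r with its partner. Other pairs that passed stood lower, down to ranks 825 and 1684 of 13779 for IDH3A and IDH3B, 471 and 974 for PDHB and DLAT, 442 and 1010 for SLC25A10 and SLC25A11 and 377 and 698 for OGDH and DLST. The membrane anchors followed with r of 0.63 for SDHB and SDHC, 0.564 for SDHB and SDHD and 0.526 for SDHC and SDHD, with permutation adjusted p of 4.2e-05, 0.00021 and 0.000735 and rho of 0.645, 0.641 and 0.577. With all 46 livers SDHB and SDHC lost the call (r of 0.12).

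MPC1 and MPC2, the obligate partners of the pyruvate carrier, had an r of 0.754 (rho 0.735, permutation adjusted p 4.2e-05). The pair DLST and DLD, the core and the last enzyme of the 2-oxoglutarate dehydrogenase complex, had an r of 0.697 (rho 0.684, same adjusted p) that turned to -0.102 with all 46 livers, and OGDH, its first enzyme, had an r of 0.464 with DLST (rho 0.453, permutation adjusted p 0.00336). In the pyruvate dehydrogenase complex, PDHA1 and PDHB reached 0.526 (rho 0.553, permutation adjusted p 0.000747) and PDHB and DLAT 0.495 (rho 0.493, permutation adjusted p 0.00176). DLAT and PDHX reached 0.289 (permutation adjusted p 0.09), with a rho of 0.339 (permutation adjusted p 0.0394), and passed with all 46 livers (r of 0.504).

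Other complexes held both strong and weak pairs. Isocitrate dehydrogenase of the NAD type is built from 3 kinds of subunit, of which IDH3B and IDH3G, the regulatory ones, had an r of 0.717 (rho 0.679, permutation adjusted p 4.2e-05). The catalytic subunit IDH3A had an r of 0.432 with IDH3B (rho 0.44, permutation adjusted p 0.00749) and of -0.111 with IDH3G (rho -0.0982, permutation adjusted p 0.529). SUCLG1, the subunit common to both succinyl-CoA ligases, had an r of 0.201 with SUCLG2 (rho 0.105, permutation adjusted p 0.258) and of -0.0113 with SUCLA2 (rho -0.0302, permutation adjusted p 0.942). SUCLG2 and SUCLA2 had an r of 0.322 (permutation adjusted p 0.0559), with a rho of 0.357 that passed (permutation adjusted p 0.0316). With all 46 livers IDH3A and IDH3B lost the call (r of 0.228).

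Enzymes that carry out the same reaction in different compartments were also weakly related. The cytosolic IDH1 and the mitochondrial IDH2, both of the NADP type, had an r of -0.0571 (rho -0.0547, permutation adjusted p 0.749). MDH1 and MDH2 had an r of 0.133 (rho 0.202, permutation adjusted p 0.459). Pairs with different reactions were weak too. PC and PDHA1, which compete for pyruvate, had an r of 0.225 (rho 0.186, permutation adjusted p 0.206), and LIPT1 and LIAS 0.159 (rho 0.0991, permutation adjusted p 0.383). With all 46 livers, r turned to -0.219 for MDH1 and MDH2 and to -0.197 for PC and PDHA1, and IDH1 and IDH2 (-0.584) and LIPT1 and LIAS (0.848) passed the test. The carriers were more closely related: the dicarboxylate carrier SLC25A10 and SLC25A11 had an r of 0.566 (rho 0.559, permutation adjusted p 0.00021). The smallest p that 100000 permutations can give, 1e-05 before adjustment, stood behind the pairs at 4.2e-05.

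**Figure D2:**
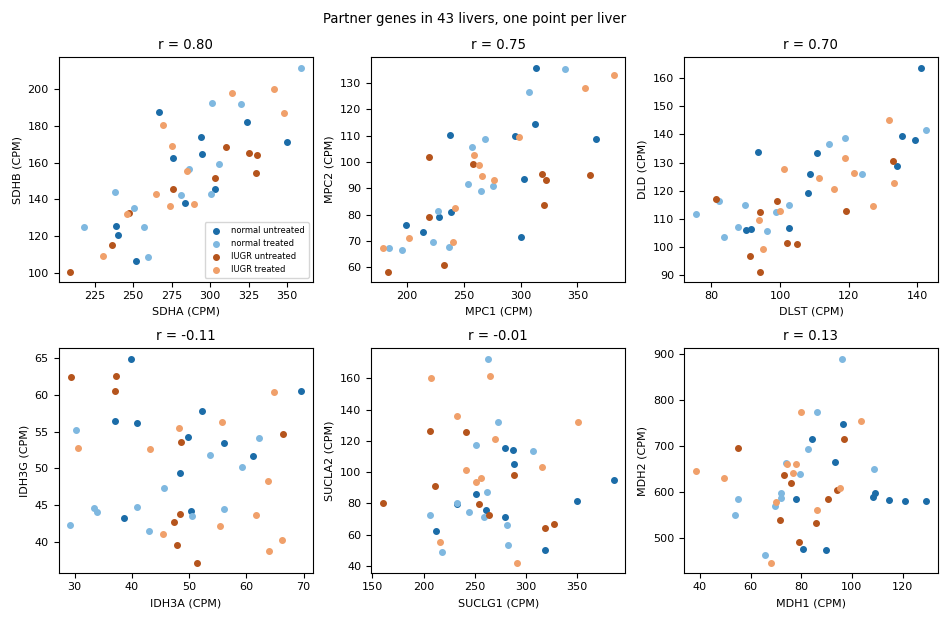
Levels of 6 partner pairs in 43 livers (CPM on both axes, 1 point per liver, colors for the labelled groups). SDHA with SDHB, MPC1 with MPC2 and DLST with DLD rise together, and IDH3A with IDH3G, SUCLG1 with SUCLA2 and MDH1 with MDH2 form clouds without a slope.

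The genes nearest to each member over all 13780 genes differed by enzyme. These neighbours are a description, chosen after their values were seen. Among the 20 genes nearest to SDHA, 11 had symbols of the respiratory chain or ATP synthase, a class that made up 0.61% of all genes tested (84 genes). The class was set by the start of the symbol. It thus includes the succinate dehydrogenase genes themselves, such as SDHB for SDHA and SDHD for PDHB, and assembly factors such as NDUFAF5. The same count was 8 for SDHB, SDHD, PDHB and MPC1, 7 for IDH3G and 6 for IDH3B and SUCLG1. It was 0 for CS, ACO1, IDH1, IDH2, OGDH, SUCLG2, SUCLA2, FH, PC, PDHX, DLAT, ME3, LIPT1 and SLC25A10. Several of these had neighbours of other pathways. IDH2 stood nearest to CDT1 (r of 0.841), followed by RFC2, ERH and FEN1, genes that with the exception of ERH act in DNA replication. PC had HADHA, ACOX2 and ACADS of fatty acid oxidation among its 8 nearest genes, and MDH2 had ACADS, HADHA, ETFDH and ACADVL. SUCLG2 was nearest to EHHADH (r of 0.765), with ACADM, SCP2 and HSD17B4, also of fatty acid oxidation, among the next. FH, fumarase, had ARG1 and CTH of amino acid metabolism among its nearest 3. LIAS was nearest to MRPL3 and MRPS35, proteins of the mitochondrial ribosome. The highest value was that of SLC25A11 with the outer membrane channel VDAC2, at an r of 0.929.

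In the 3 libraries that stood apart, enzymes of the same complex went in opposite directions. All 3 were below the range of the other 43 livers for 9 of the 32 genes (28.1%, against 27.4% of all genes tested) and above it for 5 (15.6%, against 19.1%). These shares were near those of all genes, so they describe the libraries and not the pathway. The 9 low genes were CS, IDH1, DLD, SUCLA2, SDHC, PDHB, MPC2, LIPT1 and LIAS. The 5 high ones were IDH2, IDH3B, IDH3G, OGDH and SDHA, and 7 genes stayed within the range in all 3.

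DLD, the steadiest gene elsewhere, had 12.4, 7.53 and 7.91 CPM in pigs 38, 39 and 46, below the lowest of the other 43 livers (91.3 CPM). SUCLA2 had 15, 7.23 and 14.2 CPM against a lowest of 42.3 CPM, and MPC2 had 16.6, 11.7 and 20.1 CPM against 58.4 CPM. DLD's partners in the pyruvate dehydrogenase complex were low as well, PDHB below the range in all 3 libraries and PDHA1, PDHX and DLAT in 2 of the 3. The partners of MPC2 and SUCLA2 were not. MPC1 had 259, 214 and 338 CPM, within 179 to 382 CPM, and SUCLG1 had 258 to 370 CPM, within 160 to 386 CPM. Succinate dehydrogenase split in the same way: SDHA had 563, 546 and 646 CPM against a highest of 359 CPM elsewhere, SDHC had 68.3, 42.2 and 44.1 CPM against a lowest of 98.2 CPM, and SDHD stayed within the range. OGDH, at 301, 320 and 383 CPM, was above the highest of the others (191 CPM), while DLD of the same complex was below the lowest.

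Levels of other lists moved with these libraries. The summed level of 8 hepatocyte markers was 64200, 48200 and 63400 CPM in pigs 38, 39 and 46 against a median of 118000 CPM (46300 to 168000) in the others, and that of 10 erythroid markers was 2710, 1300 and 3100 CPM against 753 CPM (150 to 2530). The albumin gene ALB, with a median of 96100 CPM over all livers, made up most of the first sum. The hemoglobin gene HBB, at 703 CPM, made up most of the second. For 7 macrophage markers the sum was 1060, 1410 and 1550 CPM against 747 CPM (539 to 1090), and 14 genes of general mitochondrial content to 2200, 1660 and 2090 CPM against 3180 CPM (2410 to 4270). Their part in the values of the cycle genes was not tested.

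**Figure D3:**
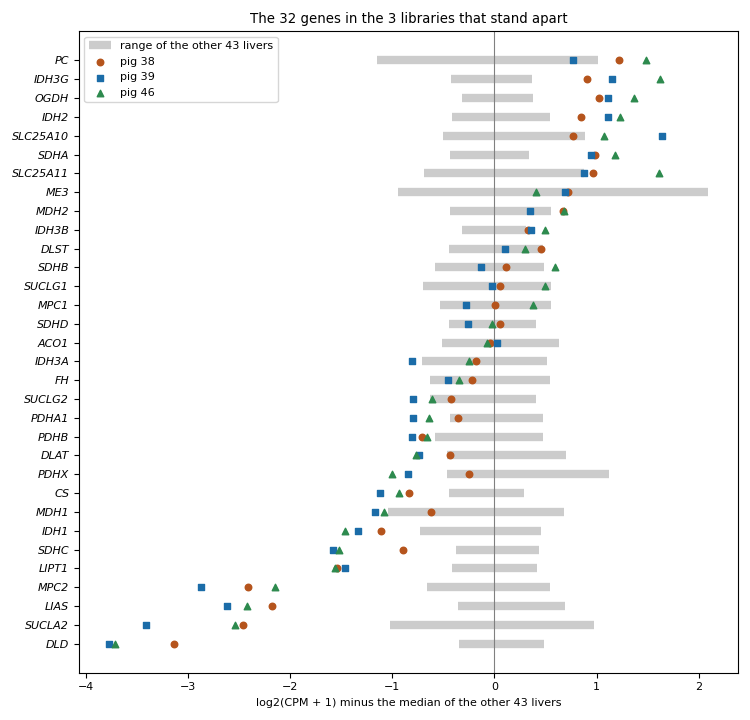
Difference of log2(CPM + 1) from the median of the other 43 livers (x axis) for the 32 genes (y axis) in pigs 38, 39 and 46, with grey bars for the range of the 43. DLD, SUCLA2, LIAS and MPC2 lie far to the left of their bars and IDH3G, OGDH, IDH2 and SDHA to the right.

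No gene of the cycle or of pyruvate entry passed the test in any of 7 comparisons between the labelled groups. The test was edgeR's quasi-likelihood test on all 46 livers with Benjamini-Hochberg adjustment over 13780 genes, and DESeq2 on the same livers also called 0 of the 32 in each comparison. The counts below at an unadjusted p under 0.05 are read against the share of all genes at that threshold. All comparisons share groups, so their values are set side by side and not compared.

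Without the supplement, edgeR called 0 of the 32 genes between IUGR and normal piglets (0.0435% of all genes tested, and 1.02% under DESeq2). With an unadjusted p under 0.05 there were 3 lower genes and 1 higher gene, or 12.5% of the 32, the same share as the 12.5% of all genes. Fold changes above 0 were found for 6 of the 32, with a median log2 fold change of -0.11 against 0.01 for all genes, of which 51% were above 0.

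MDH1, the cytosolic malate dehydrogenase (gene on chromosome 3, 78247229 to 78263085, Sscrofa11.1), had the smallest p. Its lowest, median and highest levels were 78.0, 96.3 and 129 CPM in normal untreated and 51.6, 77.4 and 96.9 CPM in IUGR untreated piglets. The groups overlapped, and the log2 fold change was -0.38 (SE 0.16, edgeR adjusted p 0.299). DLAT, the acetyltransferase core of the pyruvate dehydrogenase complex (chromosome 9, 39738639 to 39763813), had 27.0, 41.2 and 54.3 CPM in normal untreated and 24, 31.6 and 42.2 CPM in IUGR untreated piglets, a log2 fold change of -0.33 (SE 0.14, edgeR adjusted p 0.301). The upper values of DLAT were those of the normal group, the lower ones were common to both.

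PC (chromosome 2, 5566608 to 5587797) pointed the other way, with 164, 293 and 661 CPM in normal untreated and 263, 383 and 855 CPM in IUGR untreated piglets. Its log2 fold change was 0.48 (SE 0.22, edgeR adjusted p 0.345), and 0.33 without pigs 38, 39 and 46 (adjusted p 0.392), pig 38 being the highest of its group. LIAS, lipoic acid synthetase (chromosome 8, 30699278 to 30717009), had 17.0, 24.3 and 35.3 CPM in normal untreated and 3.96, 18.8 and 23.3 CPM in IUGR untreated piglets. The log2 fold change of LIAS was -0.52 (SE 0.25, edgeR adjusted p 0.378). Without pigs 38, 39 and 46 it was -0.39 (edgeR adjusted p 0.0569), and DESeq2 on those 43 livers called it (-0.40, SE 0.12, adjusted p 0.0313), the only one of the 32 called there, with 2.72% of all genes.

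With the supplement, edgeR again called 0 of the 32 between IUGR and normal piglets (0.00726% of all genes, and 0.0577% under DESeq2). An unadjusted p under 0.05 was reached by 4 genes that were higher and by 0 that were lower, 12.5% of the 32 against 16.7% of all genes. DESeq2 on 43 livers, without pigs 38, 39 and 46, called 0 of the 32 too (0.0436% of all genes). The median log2 fold change was 0.06, against 0.02 for all genes, and 20 of the 32 were above 0 (52.5% of all genes).

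SLC25A11, which exchanges malate for 2-oxoglutarate (chromosome 12, 51970794 to 51973668), had 33.9, 48.1 and 72.7 CPM in normal treated and 36.0, 61.9 and 171 CPM in IUGR treated piglets. Its log2 fold change was 0.51 (SE 0.17, edgeR adjusted p 0.221) and 0.23 without pigs 38, 39 and 46 (adjusted p 0.85). OGDH (chromosome 18, 50609415 to 50684990) had 120, 130 and 191 CPM against 118, 159 and 383 CPM, a log2 fold change of 0.38 (SE 0.15, edgeR adjusted p 0.235) that was 0.11 without the 3 libraries. IDH2 (chromosome 7, 55654298 to 55675571) had 138, 178 and 208 CPM against 161, 197 and 433 CPM, a log2 fold change of 0.34 (SE 0.14, edgeR adjusted p 0.251) that was 0.08 without them. In these groups the highest levels of all 3 genes were those of pigs 39 and 46. Without pigs 38, 39 and 46 edgeR found 0 of the 32 genes at an unadjusted p under 0.05, against 6.23% of all genes.

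As the mean of both treatments, IUGR against normal gave 0 calls among the 32 genes (0% of all genes by edgeR, 1.66% by DESeq2 and 0.446% by DESeq2 on 43 livers). There were 2 higher and 2 lower genes with an unadjusted p under 0.05, against 22.8% of all genes. OGDH had a log2 fold change of 0.30 (SE 0.11, edgeR adjusted p 0.121), MDH1 of -0.27 (SE 0.11, adjusted p 0.148) and PC of 0.36 (SE 0.15, adjusted p 0.151). Without the 3 libraries these were 0.10, -0.18 and 0.18.

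**Figure D4:**
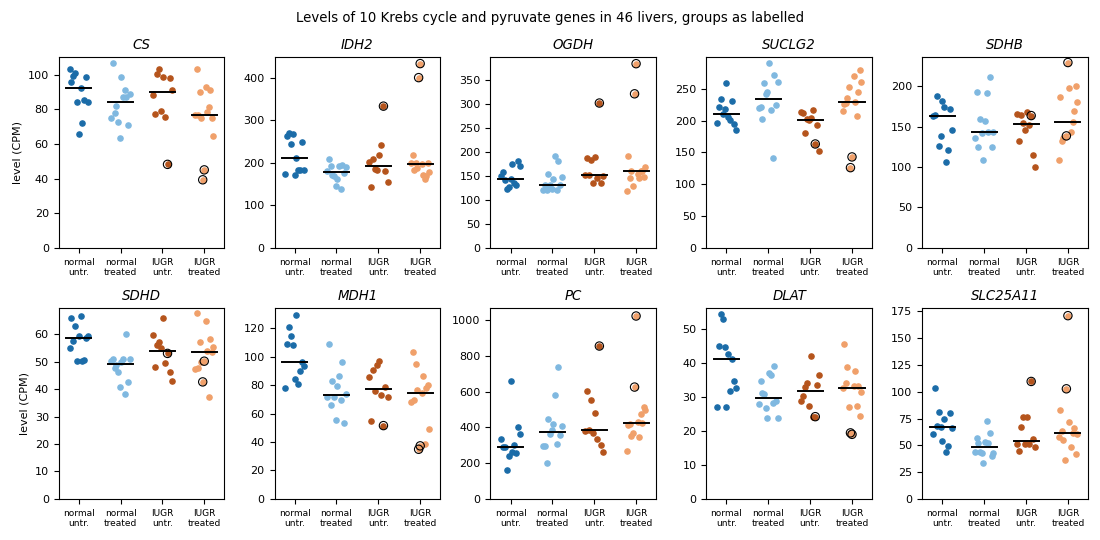
Levels (CPM, linear axis from 0) of the 10 genes with the smallest p in any comparison, 1 point per liver in the 4 labelled groups, with a line at the median and rings around pigs 38, 39 and 46. The groups overlap for every gene, and in OGDH, IDH2 and SLC25A11 the highest points are ringed.

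In normal piglets, treated against untreated, edgeR called 0 of the 32 (0% of all genes, and 0.244% under DESeq2), while an unadjusted p under 0.05 was found for 6 genes, all of them lower. That is 18.8% of the 32, against 8.53% of all genes. The 6 were SDHD, DLAT, MDH1, SLC25A11, IDH2 and IDH3B. The median log2 fold change was -0.08, against -0.00 for all genes, and 9 of the 32 were above 0 (49.1% of all genes).

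SDHD, a membrane anchor of succinate dehydrogenase (chromosome 9, 39790654 to 39803602), had 50.0, 58.6 and 66.7 CPM in normal untreated and 38.1, 49.2 and 60.2 CPM in normal treated piglets, a log2 fold change of -0.27 (SE 0.09, edgeR adjusted p 0.282). DLAT lies 26840 bases from it on the same chromosome. DLAT had 27.0, 41.2 and 54.3 CPM in untreated and 23.7, 29.7 and 39.2 CPM in treated piglets, a log2 fold change of -0.36 (SE 0.13, edgeR adjusted p 0.345). MDH1 went from a median of 96.3 CPM (78.0 to 129) to 72.9 CPM (53.7 to 109), a log2 fold change of -0.40 (SE 0.15, edgeR adjusted p 0.387). For each gene the ranges of the groups overlapped.

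SLC25A11 had a median of 67.1 CPM (44.0 to 103) in untreated and of 48.1 CPM (33.9 to 72.7) in treated normal piglets, a log2 fold change of -0.45 (SE 0.18, edgeR adjusted p 0.449), and IDH2 had 211 CPM (172 to 269) and 178 CPM (138 to 208), a log2 fold change of -0.31 (SE 0.14, edgeR adjusted p 0.556). None of the 3 libraries apart is in these groups, but they enter the common estimate of spread. With DESeq2 on the other 43 livers, IDH2 (-0.30, adjusted p 0.0357), SLC25A11 (-0.44, adjusted p 0.0371) and SDHD (-0.26, adjusted p 0.0499) fell, 3 of the 32 with 3.74% of all genes called. The number at an unadjusted p under 0.05 by edgeR was 10 on these livers, against 18.8% of all genes. Under edgeR on the same livers their adjusted p were 0.0709, 0.0702 and 0.0811 and 0 of the 32 passed.

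Genes of mitochondrial content lay lower in the same comparison. The 14 genes of mitochondrial content, such as ATP5F1A and VDAC2, had a median log2 fold change of -0.23, with 0 called by edgeR and by DESeq2. Of the 14, 4 were lower at an unadjusted p under 0.05, against 8.53% of all genes in either direction. Fold changes above 0 were found for 1 of 14, against 49.1% of all genes. Their summed level had a median of 3500 CPM (2800 to 4270) in normal untreated and 3030 CPM (2490 to 3790) in normal treated piglets. Whether that has a part in the values of the cycle genes was not tested.

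In IUGR piglets, treated against untreated, edgeR called 0 of the 32 (0.029% of all genes, 0.138% under DESeq2 and 0.614% under DESeq2 on 43 livers, also with 0 of the 32), and 0 had an unadjusted p under 0.05 (4.54% of all genes). Fold changes above 0 were found for 24 of the 32, with a median of 0.08 on the log2 scale against 0.02 for all genes, of which 57.2% were above 0. SUCLG2 (chromosome 13, 48650851 to 49090521) had 152, 202 and 217 CPM in untreated and 126, 229 and 279 CPM in treated IUGR piglets, a log2 fold change of 0.21 (SE 0.11, edgeR adjusted p 1). Without pigs 38, 39 and 46, 1 of which was in the untreated and the others in the treated group, it was 0.29 (adjusted p 0.136). CS (chromosome 5, 21669778 to 21700737) had 48.3, 89.8 and 103 CPM against 39.3, 76.7 and 104 CPM, a log2 fold change of -0.18 (SE 0.12), and SDHB (chromosome 6, 75648362 to 75678111) had 101, 153 and 169 CPM against 109, 155 and 229 CPM, a log2 fold change of 0.15 (SE 0.12), both with an edgeR adjusted p of 1.

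As the mean of both sizes, treated against untreated gave 0 calls among the 32 genes (0.0435% of all genes by edgeR, 0.115% by DESeq2), with an unadjusted p under 0.05 for 1 higher gene and 3 lower ones (6.01% of all genes). MDH1 had a log2 fold change of -0.29 (SE 0.11, edgeR adjusted p 0.627), SDHD of -0.14 (SE 0.06, adjusted p 0.737) and SUCLG2 of 0.17 (SE 0.08, adjusted p 0.765). With DESeq2 on 43 livers SUCLG2 rose (0.21, adjusted p 0.0372), the 1 gene of the 32 called there (2.11% of all genes), and its edgeR adjusted p on those livers was 0.0723.

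The difference of the IUGR contrast between treated and untreated piglets, an interaction, gave 0 calls among the 32 (0% of all genes by edgeR, 0.0434% by DESeq2 and 0.153% by DESeq2 on 43 livers). Unadjusted p under 0.05 were found for 2 genes, both above 0, against 6.66% of all genes. Values above 0 were found for 26 of the 32, with a median of 0.15 on the log2 scale against 0.03 for all genes (55% above 0), and for 14 of 14 mitochondrial content genes (median 0.22). SLC25A11 had an interaction of 0.61 (SE 0.26, edgeR adjusted p 0.659), IDH2 of 0.43 (SE 0.21, adjusted p 0.733) and SDHD of 0.25 (SE 0.12, adjusted p 0.752). Without pigs 38, 39 and 46 these were 0.45, 0.27 and 0.27 (edgeR adjusted p 0.327, 0.387 and 0.343), and 7 of the 32 genes, all above 0, had an unadjusted p under 0.05, against 12.1% of all genes, with 0 called.

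**Figure D5:**
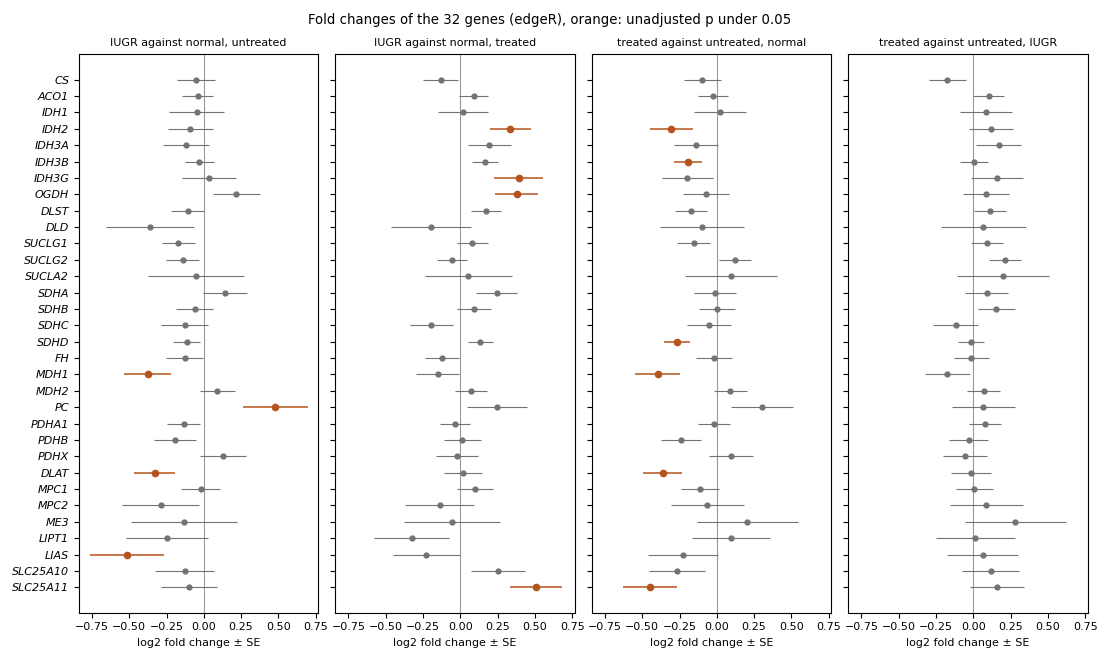
Log2 fold change with its standard error (x axis) of the 32 genes (y axis) in the 4 comparisons between single groups, with genes at an unadjusted p under 0.05 in orange. The numbers of orange genes are 4, 4, 6 and 0, and none passed the adjusted threshold.

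Genes around the cycle were tested in the same fit. Of 43 further genes of 6 lists, which hold other cycle enzymes, the kinases and phosphatases of pyruvate dehydrogenase, anaplerosis and transamination, carriers, lipoate and iron-sulfur assembly, and the assembly of succinate dehydrogenase, edgeR called 0 in each of the 7 comparisons, and DESeq2 called 1, BOLA3, in untreated IUGR against untreated normal piglets and 0 in the other 6. An unadjusted p under 0.05 was found for 4 of them in untreated IUGR against untreated normal piglets (0 above and 4 below 0, against 12.5% of all genes), 6 in the treated groups (4 and 2, against 16.7%), 4 in normal piglets by treatment (2 and 2, against 8.53%) and 3 in IUGR piglets by treatment (2 and 1, against 4.54%).

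The smallest p among them belonged to BOLA3, which helps to place iron-sulfur clusters needed by LIAS. Its log2 fold change was -0.57 (SE 0.14, edgeR adjusted p 0.135) in treated against untreated normal piglets and -0.54 (SE 0.15, edgeR adjusted p 0.0998, DESeq2 adjusted p 0.0469) in untreated IUGR against untreated normal piglets. NDUFAB1, the mitochondrial acyl carrier protein on which lipoate is built, had -0.32 (SE 0.11, edgeR adjusted p 0.217) in the second of these. Both comparisons share the normal untreated group.

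PDP1, a phosphatase that switches pyruvate dehydrogenase on, had a log2 fold change of -0.53 (SE 0.19, edgeR adjusted p 0.229) in treated IUGR against treated normal piglets. PDK2, a kinase that switches it off, had 0.51 (SE 0.22, edgeR adjusted p 0.902) in IUGR piglets by treatment. PDK4, the kinase that fasting is known to induce, is among the 5 check genes for the headings. Between the untreated groups DESeq2 called 0 of those as deposited and 5 with the headings sorted as text. With the headings as deposited, PDK4 had 0.33 (SE 0.43, edgeR adjusted p 0.794) in untreated and -0.39 (SE 0.40, adjusted p 0.591) in treated IUGR against normal piglets. By treatment it had 0.75 (SE 0.42, edgeR adjusted p 0.657) in normal and 0.03 (SE 0.42, adjusted p 1) in IUGR piglets.

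In treated IUGR against treated normal piglets, the mitochondrial aspartate aminotransferase GOT2 had -0.30 (SE 0.11, edgeR adjusted p 0.232), and the citrate carrier SLC25A1 and the citrate-cleaving ACLY, which together move acetyl units out for lipid synthesis, had 0.47 (SE 0.18, adjusted p 0.232) and 0.35 (SE 0.15, adjusted p 0.253). The 2-oxoadipate carrier SLC25A21 had -0.44 (SE 0.20, edgeR adjusted p 0.348) in untreated IUGR against untreated normal piglets. DHTKD1 and OGDHL, relatives of OGDH, had 0.27 (SE 0.12, edgeR adjusted p 0.527) in normal and 0.60 (SE 0.29, edgeR adjusted p 1) in IUGR piglets by treatment. The succinate dehydrogenase assembly factors SDHAF2 and SDHAF3 had 0.20 (SE 0.12, adjusted p 0.387) in treated and -0.29 (SE 0.19, adjusted p 0.544) in untreated IUGR against normal piglets by edgeR.

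Of 8 regulators of mitochondrial genes, edgeR called 0 in each of the 7 comparisons and DESeq2 called 1, the nuclear receptor ESRRA, in IUGR against normal piglets as the mean of both treatments (adjusted p 0.0484). By edgeR there was an unadjusted p under 0.05 for 4 of them (3 above and 1 below 0) in untreated IUGR against untreated normal piglets, where 12.5% of all genes had one. Cell type markers moved beside the groups too. In that comparison 9 of 9 tested erythroid markers had a log2 fold change above 0 (median 1.01, 6 at an unadjusted p under 0.05 against 12.5% of all genes, 0 called by edgeR and 1, SLC4A1, by DESeq2), and their summed level was 617 CPM (150 to 2220) in normal and 907 CPM (648 to 2710) in IUGR untreated piglets. Hepatocyte markers summed to medians of 112000 CPM in normal untreated, 133000 CPM in normal treated, 101000 CPM in IUGR untreated and 133000 CPM in IUGR treated piglets, with ranges that overlapped. The hepatocyte sum was mostly ALB and the erythroid sum mostly HBB. Single hepatocyte markers went both ways, from -0.37 to 0.78 in untreated IUGR against untreated normal piglets (3 of 8 above 0). In IUGR piglets by treatment they ran from -0.59 to 0.44 (6 of 8 above 0). Of the other liver cell lists, median sums per group were 43.3 to 63.5 CPM for cholangiocytes, 668 to 770 CPM for macrophages, 4.26 to 6.78 CPM for T and NK cells, 43.4 to 54.7 CPM for neutrophils, 534 to 669 CPM for endothelium and 343 to 480 CPM for stellate cells. Markers of other organs were near 0, with medians per group of at most 2.07 CPM for skeletal muscle, 5.64 CPM for heart muscle, 0.674 CPM for adrenal cortex and 1.02 CPM for pancreatic acinar cells. The part of these markers in the values of the cycle genes was not tested.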

How the data were processed

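Liver RNA of 46 piglets was sequenced by the authors. The deposited table holds estimated counts for each gene, not normalized and with 85.9% whole values, which the authors obtained after mapping reads to Sscrofa11.1 with Bowtie2. The counting program was not given in the sources used here, and the submitters' processing notes name DESeq2. Columns were matched to piglets by number and to groups by the sample labels, and no column without a sample was used.

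Counts were rounded and tested with edgeR 4.0.16 (R 4.3.3): TMM scaling, filterByExpr over 4 groups with a minimum count of 10, robust quasi-likelihood F test, and 1 fit of all 46 livers with a mean per group, at a Benjamini-Hochberg adjusted p under 0.05. DESeq2 1.42.0, its size factors, no filter, 43 livers and fits of the compared groups alone were alternatives. The script was tested on simulated data. Levels are TMM CPM. Correlations used log2(CPM + 1) in 43 livers with 100000 permutations, two-sided, adjusted over 21 pairs. Total counts of 15036591 to 19340218 set the counting precision, and p-values measure only the spread between these piglets.

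Members, gene lists, partner pairs and tests were chosen with earlier results of these data known. Values per group were given for genes called by edgeR or DESeq2 and, in each comparison, for the 3 with the smallest p. IDH2 and SLC25A11 in normal piglets, and LIAS between the untreated groups, were added after their values were seen. For the lists of pathway genes the rule was the 2 smallest p per list. PDK4 and further comparisons of those genes were also added after their values were seen. The check genes for the column headings came from the text of the study, with the direction it gives them. All 32 genes matched the reference table by identifier. SLC25A18, FDX2 and SDHAF4 were not analysed here, nor were 7 of the 21 mitochondrial content genes.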

Additional observations from a re-analysis of the deposited data

Results flagged for a closer look

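In the 10 IUGR untreated livers, 13 of the 32 genes had a library far from the other 9 by Dixon's criterion, where chance gives about 1 in 20. Groups of more than 10 livers were not checked. In 12 of the 13 it was pig 38, which stood apart over all genes. The share of all genes with such a library was not computed, so these flags describe that library and not the pathway. It was low for CS (48.3 CPM), IDH1 (165 CPM), DLD (12.4 CPM), MPC2 (16.6 CPM), LIPT1 (0.233 CPM) and LIAS (3.96 CPM). It was high for IDH2 (333 CPM), IDH3G (95.1 CPM), OGDH (301 CPM), SDHA (563 CPM), MDH2 (961 CPM) and SLC25A11 (110 CPM). The other was ME3 in pig 12, at 25.6 CPM against 3.46 to 12.1 CPM in the rest of the group.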

How the results depend on the processing

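The number of these genes called stayed at 0 in each of the 7 comparisons under every alternative run, except by DESeq2 without pigs 38, 39 and 46, an alternative chosen after seeing the data: 1 gene (LIAS) between the untreated groups, 3 (IDH2, SDHD and SLC25A11) in normal piglets by treatment and 1 (SUCLG2) in the mean of both sizes, where edgeR on all livers called 0. These 5 fold changes passed the threshold only there. Counts at an unadjusted p under 0.05 moved without the 3 libraries by edgeR, and so did the share of all genes (in brackets). They went from 4 to 5 between the untreated groups (12.5% to 16.1%) and 4 to 0 between the treated groups (16.7% to 6.23%). Between the sizes as the mean of both treatments they went from 4 to 1 (22.8% to 11.6%). In normal piglets by treatment they went from 6 to 10 (8.53% to 18.8%, and 9 on the compared groups alone). In IUGR piglets by treatment they went from 0 to 1 (4.54% to 11.9%). By treatment as the mean of both sizes they went from 4 to 7 (6.01% to 18.5%), and in the interaction from 2 to 7 (6.66% to 12.1%). All 64 median levels under alternatives moved by less than 1 SD. Counts over all genes moved more: between the untreated groups they were 6 with edgeR, 159 with DESeq2, 2 with DESeq2 size factors, 2 without the filter, 199 with edgeR and 393 with DESeq2 without the 3 libraries, and in normal piglets by treatment 0, 31, 0, 0, 105 and 487.

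With all 46 livers the correlation reversed for DLST and DLD (r of -0.102), MDH1 and MDH2 (-0.219) and PC and PDHA1 (-0.197), fell short of the threshold for IDH3A and IDH3B (0.228) and SDHB and SDHC (0.12), and passed it for DLAT and PDHX (0.504), SUCLG2 and SUCLA2 (0.652), LIPT1 and LIAS (0.848) and IDH1 and IDH2 (-0.584). With labelled group means removed, SUCLG1 and SUCLA2 had 0.00697 and DLAT and PDHX passed at 0.415. The cause was not tested beyond leaving these libraries out. No paired analysis was possible because the labels give no litter, which could cross all 4 groups and is left out of every fit, and no pig number is in more than 1 group. The doubt about the column headings holds for each group comparison, for the check within the IUGR untreated livers and for each pig number given.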
